A study of Mus musculus with 10 samples.

Results

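Hepatocyte identity is held by a small network of transcription factors, and 9 of its genes were followed here in the livers of mice with lung cancer: Hnf4a, Foxa1, Foxa2, Foxa3, Cebpa, Ppara, Nr1i2, Nr1i3 and Nr5a2. They were chosen by name, and their rows were found among the 43629 genes of the count table through Ensembl identifiers and GENCODE M21 symbols. All 9 passed the filter on low counts, which left 14143 genes for the tests. The question put to them was whether these regulators differ in level between the livers of cachectic and non-cachectic tumour-bearing mice.

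The livers came from adult male KL mice, a Cre-inducible model of lung cancer that carries floxed copies of the tumour suppressor Lkb1 (Lkb1 flox/flox) and was backcrossed to FVB. Lung tumours had been started by adenovirus given through the nose that expresses Cre from the CMV promoter, which is not restricted to a cell type, and recombination in the liver was not tested. Mice that lost much of their peak body weight were classed as having cancer anorexia-cachexia syndrome (CACS, 5 mice, numbered 16 to 20) and the others as not having it (NCACS, 5 mice, numbered 11 to 15). Both groups carried tumours, and no tumour-free livers were compared here. Each liver is a separate mouse. The weight change was between -14 and -3% in NCACS mice (mean -8.0 ± 4.64, SD, n = 5) and between -33 and -29% in CACS mice (mean -30.6 ± 1.82, SD, n = 5), so weight loss and group cannot be told apart.

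HNF4A is a nuclear receptor that binds DNA as a homodimer near a large share of the genes expressed in hepatocytes. The FOXA proteins are forkhead factors that open chromatin in the developing and adult liver, and C/EBPα is a leucine zipper factor of the differentiated hepatocyte. PPARα drives fatty acid oxidation and ketogenesis in fasting, PXR (encoded by Nr1i2) and CAR (Nr1i3) sense foreign compounds and bile acids and induce drug-metabolising enzymes, and LRH-1 (Nr5a2) acts on bile acid and cholesterol genes. PPARα, PXR and CAR bind DNA with the retinoid X receptor RXRα, whereas LRH-1 binds as a monomer.

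The bases just upstream of the transcription starts are shown for Hnf4a, the gene that passed the test, and for the pairs Nr1i2 with Nr1i3 and Foxa1 with Foxa2, whose levels moved together from liver to liver. Each is the reference sequence of RefSeq (GRCm38.p6) on the strand of the gene, 5′ to 3′, up to 250 bases before the start and outside the exons of GENCODE M21, and capitals mark a motif match. Hnf4a and Nr1i3 lie on the plus strand and the others on the minus strand. The downstream start of Hnf4a lies inside the gene, in an intron of the transcripts that begin at the upstream start, and gene counts do not tell transcripts of these starts apart. The Foxa1 and Foxa2 starts shown also lie inside their genes, downstream of the outermost annotated start.
Hnf4a upstream start, chr2:163506607-163506807: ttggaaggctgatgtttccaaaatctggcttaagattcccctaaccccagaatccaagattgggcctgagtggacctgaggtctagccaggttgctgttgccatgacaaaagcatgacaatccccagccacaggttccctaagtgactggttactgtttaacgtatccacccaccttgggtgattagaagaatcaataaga
Hnf4a downstream start, chr2:163546943-163547154: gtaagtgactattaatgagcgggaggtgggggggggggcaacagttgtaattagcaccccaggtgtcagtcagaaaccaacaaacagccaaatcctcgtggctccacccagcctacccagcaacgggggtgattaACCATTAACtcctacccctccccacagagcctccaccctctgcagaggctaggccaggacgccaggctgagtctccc
Nr1i2, chr16:38294825-38295074: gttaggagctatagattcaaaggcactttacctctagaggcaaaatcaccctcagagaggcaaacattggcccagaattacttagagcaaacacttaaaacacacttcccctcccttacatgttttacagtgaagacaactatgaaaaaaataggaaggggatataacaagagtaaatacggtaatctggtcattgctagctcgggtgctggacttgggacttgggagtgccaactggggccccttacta
Nr1i3, chr1:171213720-171213969: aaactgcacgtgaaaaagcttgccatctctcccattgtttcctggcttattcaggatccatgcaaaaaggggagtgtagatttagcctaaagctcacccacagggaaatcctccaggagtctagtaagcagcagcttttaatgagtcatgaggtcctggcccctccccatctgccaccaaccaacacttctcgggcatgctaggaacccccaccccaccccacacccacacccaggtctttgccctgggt
Foxa1, chr12:57546122-57546361: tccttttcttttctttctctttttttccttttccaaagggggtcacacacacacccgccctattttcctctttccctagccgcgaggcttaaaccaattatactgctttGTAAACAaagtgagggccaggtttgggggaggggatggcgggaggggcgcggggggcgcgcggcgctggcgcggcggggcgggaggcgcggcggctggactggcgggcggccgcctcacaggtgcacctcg
Foxa2, chr2:148045465-148045714: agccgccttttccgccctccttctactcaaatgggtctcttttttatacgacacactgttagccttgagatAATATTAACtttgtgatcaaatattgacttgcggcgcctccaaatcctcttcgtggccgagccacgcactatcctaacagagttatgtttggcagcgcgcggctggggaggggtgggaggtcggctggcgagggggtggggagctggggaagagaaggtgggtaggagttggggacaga

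The capitals in the Hnf4a and Foxa2 sequences mark the HNF1 motif GTTAATNNT, which was found on the opposite strand. It lay 77 to 69 bases before the downstream Hnf4a start and 179 to 171 bases before the Foxa2 start shown. The other Foxa2 start windows, including that of the outermost start, held 0 motif matches. The capitals in the Foxa1 sequence mark the FOXA motif TGTTTAC, 141 to 135 bases before the start, also on the opposite strand. Across the 13 RefSeq start windows of the 9 genes, searched on both strands, the HNF1 motif occurred in 3 (Hnf4a, Foxa2 and Nr5a2), beside 2.27% of 32851 windows of the same length over all genes. The FOXA motif occurred in 1 window, beside 3.17% of all windows. The C/EBP motif TTNNGCAA (9.56% of all windows) and the AGGTCA element of nuclear receptors (14%) each occurred in 1 window, both of Nr5a2. The HNF4 motif CAAAGTCCA (0.384%) and the NR5A2 motif CAAGGTCA (1.33%), which contains that element, were found in 0 of the 13 windows. A match describes the letters only.

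Total counts per liver were between 31945328 and 38306888 in NCACS mice and between 31459179 and 40746178 in CACS mice, and the TMM factors that scale them ran from 0.958 to 1.07. Levels are given as CPM (a gene's counts scaled to a common library size) after TMM scaling, and log2 fold changes are CACS minus NCACS. Hepatocyte transcripts were abundant in every liver: the 10 hepatocyte markers together reached between 84340 and 132500 CPM in NCACS livers and between 124900 and 149700 CPM in CACS livers, and none was at 0. In whole liver, fewer cells of a type and less RNA per cell cannot be told apart. The library of NCACS mouse 15 stood apart in the clock gene Dbp, which was picked after its values were seen. Its level was 1.27 CPM, against 52.1 to 82.9 CPM in the other NCACS livers and 18.8 to 58.8 CPM in CACS livers. Without this mouse 285 genes passed in place of 538. The count fell with any 1 mouse left out, to between 178 (without NCACS mouse 11) and 519 (without CACS mouse 17).

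The quasi-likelihood test of edgeR was run on the whole table, its p-values were adjusted by Benjamini-Hochberg over every tested gene, and 1 of the 9 genes had an adjusted p under 0.05: Hnf4a, which was higher in CACS livers. Over all 14143 genes, 538 passed (3.8%), of which 267 were higher (1.89%) and 271 lower (1.92%). Without adjustment, 3 of the 9 (Hnf4a, Nr1i2 and Nr1i3, all higher in CACS livers) had a p under 0.05, beside 21.6% of all genes. That share covers both directions, with 1596 of the 14143 genes higher and 1455 lower. The estimate was above 0 for 6 of the 9, beside 49.4% of all genes. The groups did not overlap for 1 of the 9, again Hnf4a, beside 7.07% of all genes. The estimates differed in sign and size: Hnf4a, Nr1i2 and Nr1i3 had log2 fold changes between 0.50 and 0.72, the 3 Foxa genes lay within 0.20 of no change, and Cebpa, Ppara and Nr5a2 lay between -0.26 and -0.17.

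**Figure D1:**
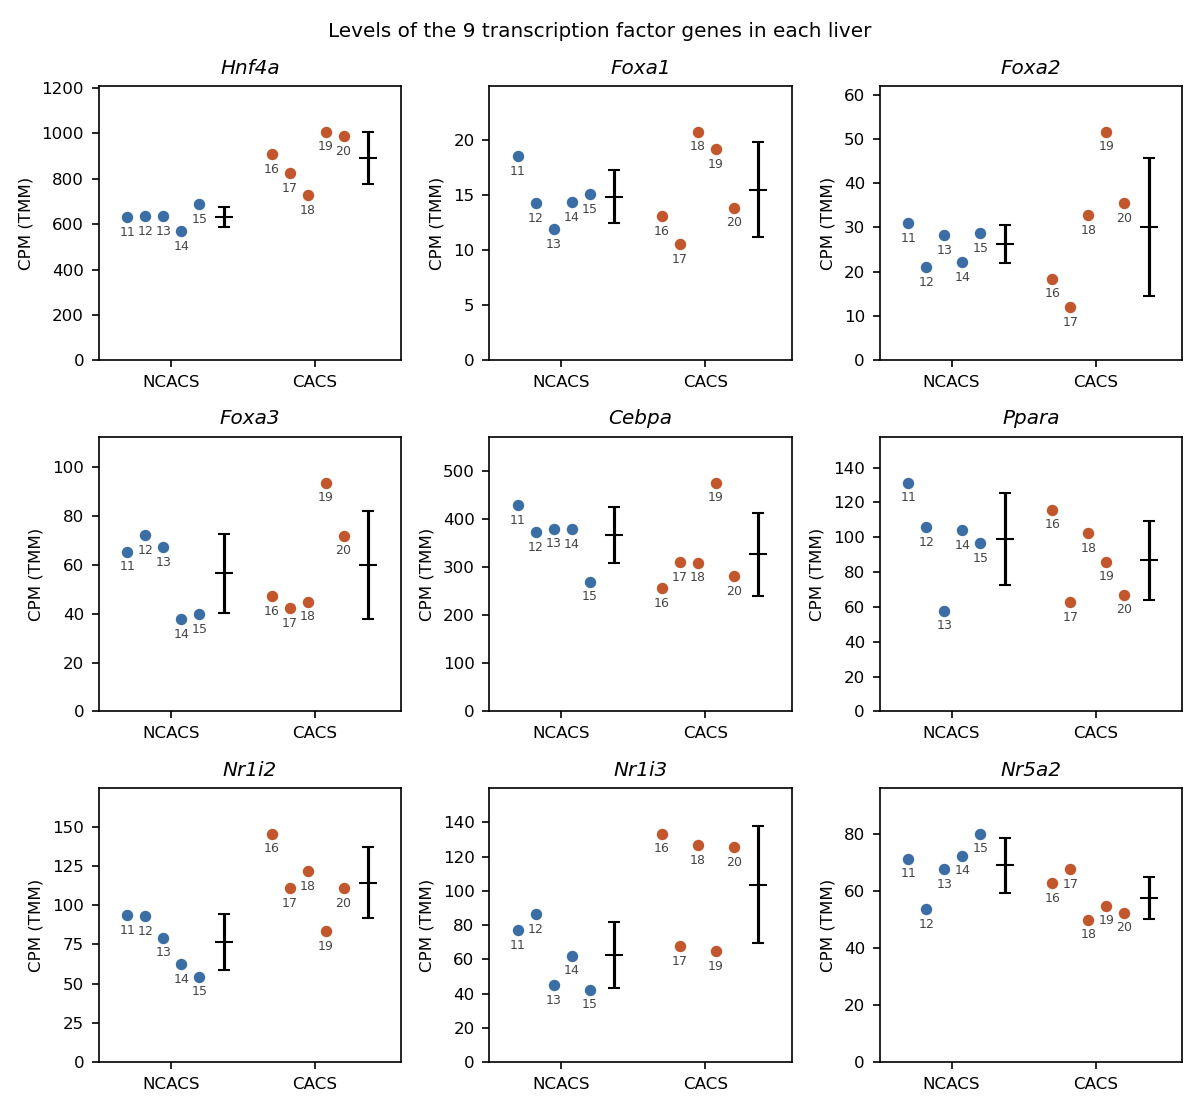
Level of each of the 9 genes (CPM after TMM scaling, each axis from 0) in the 5 NCACS livers (blue) and 5 CACS livers (orange), with mouse numbers under the points and the mean ± SD at the right of each group. Hnf4a is the gene whose groups do not overlap, with NCACS livers between 568 and 688 CPM and CACS livers between 729 and 1007 CPM, while the other 8 genes share part of their range.

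**Figure D2:**
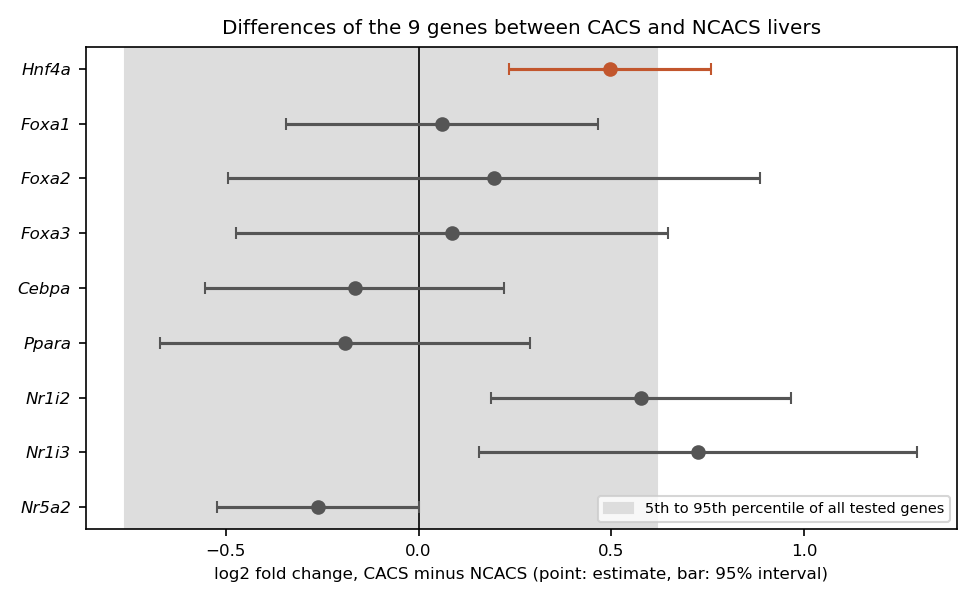
Log2 fold change (CACS minus NCACS, horizontal axis) of each gene with its 95% interval from edgeR, with Hnf4a in orange as the gene past an adjusted p of 0.05 and the grey band spanning the 5th to 95th percentile of all tested genes, -0.76 to 0.62. The intervals of Hnf4a, Nr1i2 and Nr1i3 lie above 0, and those of the other 6 genes include it.

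Hnf4a (ENSMUSG00000017950, chr2:163506808-163572910, plus strand, GRCm38) was read at 632, 636, 636.5, 568 and 688 CPM in NCACS mice 11 to 15. In CACS mice 16 to 20 it was read at 908, 826, 729, 1007 and 988 CPM. Every CACS liver was above every NCACS liver, and the CACS livers were also more spread out, with a coefficient of variation of 13% against 6.73%. The mean rose from 632 ± 42.5 CPM (SD, n = 5) to 891.5 ± 116 CPM (SD, n = 5), a 1.41-fold difference with a 95% interval of 1.18 to 1.69. On the log2 scale the difference was 0.50 (standard error 0.12), with an edgeR adjusted p of 0.0435. The exact two-sided permutation test gave p = 0.00794, the smallest that 5 livers against 5 allow. Depth does not limit this gene, which had between 18868 and 36332 counts per liver.

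The adjusted p of Hnf4a lay close to the threshold, and the call did not hold when a liver was removed. Leaving out any mouse other than CACS mouse 18 took the edgeR adjusted p to between 0.0516 (without CACS mouse 17) and 0.0974 (without CACS mouse 19), with log2 fold changes from 0.45 (without CACS mouse 19) to 0.53 (without NCACS mouse 15). The values were 0.0887, 0.0808, 0.068, 0.0828 and 0.0606 without NCACS mice 11 to 15, and 0.0858 and 0.094 without CACS mice 16 and 20. With CACS mouse 18 left out, the log2 fold change was 0.56 and the adjusted p 0.0417. Keeping genes of low counts in the test took it to 0.0763, whereas DESeq2 gave 0.00122.

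**Figure D3:**
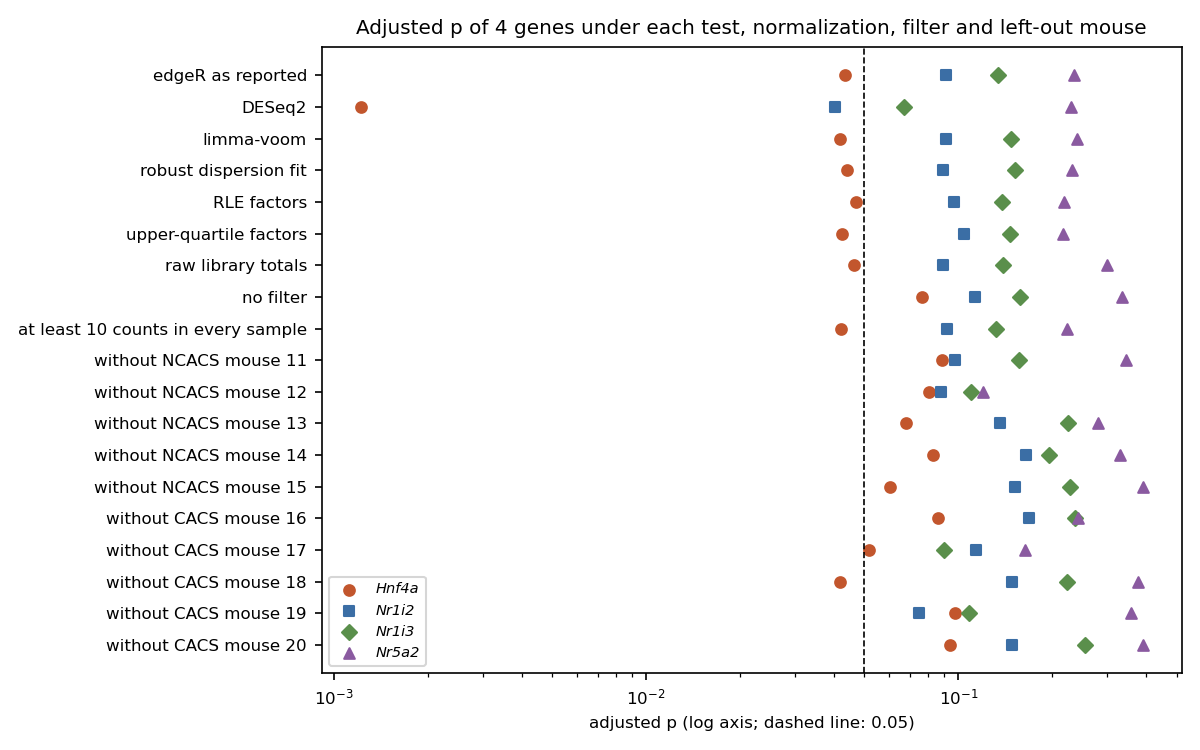
Adjusted p (log axis, dashed line at 0.05) of Hnf4a, Nr1i2, Nr1i3 and Nr5a2 for each test, normalization, filter and left-out mouse (vertical axis). Hnf4a is left of the line with all 10 livers except without a filter (0.0763), and right of it for each left-out mouse but CACS mouse 18, and Nr1i2 is left of it with DESeq2 alone (0.0402).

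An antisense gene, Hnf4aos, overlaps Hnf4a on the opposite strand, and whether the counting used strand is not given in the sources used here. Hnf4aos had between 275 and 475 counts per liver. Its mean went from 11.97 to 8.95 CPM, which is -0.42 on the log2 scale and did not pass (edgeR adjusted p = 0.0662). A ratio of the sense to the antisense gene, chosen after the values were seen, was 44.8, 56.6, 67.4, 44.9 and 55.3 Hnf4a reads per Hnf4aos read in NCACS mice 11 to 15. It was 90.8, 98.1, 81.2, 115 and 115 in CACS mice 16 to 20, without overlap. Hnf4a itself did not overlap, and its ratio to another tested gene separated the groups in this direction for 24.3% of genes. No 100-base stretch of the transcripts of any of the 9 genes occurs, on the same strand, in the transcripts of another gene (0 shared). Stretches shared with genes on the opposite strand, such as Hnf4aos, and copies that differ by a few bases were not searched for.

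The level of Hnf4a relative to the other regulators was also taken within each liver, which removes the scaling between libraries. This measure, with 0.05 CPM added, was chosen after the data were seen. The ratio of Hnf4a to Nr5a2 was between 7.83 and 11.8 in NCACS livers and between 12.2 and 18.8 in CACS livers. It was the ratio without overlap among the 8 possible (1 of 8), beside 24.3% of all other tested genes, over which the ratio of Hnf4a to the gene separated the groups in this direction, and 0.141% in the opposite direction. The ratio of Hnf4a to Cebpa was between 1.47 and 2.54 in NCACS and between 2.11 and 3.53 in CACS livers, which overlap.

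The 3 Foxa genes did not pass the test, and their CACS livers were widely spread, with coefficients of variation of 27.8% for Foxa1, 51.5% for Foxa2 and 37% for Foxa3, against 16.2%, 16.6% and 28.9% in NCACS livers. Foxa1 (ENSMUSG00000035451, chr12:57540628-57546916, minus strand) was read at 18.6, 14.2, 11.9, 14.4 and 15.1 CPM in NCACS mice 11 to 15. In CACS mice 16 to 20 it was read at 13.1, 10.5, 20.75, 19.2 and 13.9 CPM. CACS mouse 17 was the lowest and CACS mouse 18 the highest of all 10 livers. The difference was 0.061 on the log2 scale (standard error 0.19, 95% interval -0.34 to 0.47, edgeR adjusted p = 0.886), and it lay below 0 without NCACS mouse 13 (-0.00726), CACS mouse 18 (-0.0647) or CACS mouse 19 (-0.0266).

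Foxa2 (ENSMUSG00000037025, chr2:148042877-148046969, minus strand), also known for its part in hepatic lipid and bile acid metabolism, was read at 31.03, 21.1, 28.2, 22.25 and 28.75 CPM in NCACS mice 11 to 15. CACS mice 16 to 20 gave 18.4, 12.04, 32.8, 51.6 and 35.6 CPM. The CACS livers thus reached beyond the NCACS range on both sides, with 2 below its lowest and 3 above its highest value. The means were 26.3 ± 4.35 and 30.1 ± 15.5 CPM (SD, n = 5 each), and their log2 difference was 0.20 (standard error 0.32, 95% interval -0.49 to 0.89, edgeR adjusted p = 0.767). Without CACS mouse 19 it was -0.0876.

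Foxa3 (ENSMUSG00000040891, chr7:19013284-19023538, minus strand), which mice need to hold their blood glucose in a long fast, was read at 65.45, 72.1, 67.4, 37.9 and 39.9 CPM in NCACS mice 11 to 15. In CACS mice 16 to 20 it was read at 47.25, 42.4, 44.9, 93.7 and 72.0 CPM. NCACS mice 14 and 15 were the lowest and CACS mouse 19 the highest of all livers. On the log2 scale the groups differed by 0.086 (standard error 0.26, 95% interval -0.47 to 0.65, edgeR adjusted p = 0.885), and it was -0.0269, -0.013 and -0.13 without NCACS mouse 14, NCACS mouse 15 and CACS mouse 19. The exact two-sided permutation p was 0.889 for Foxa1, 0.913 for Foxa2 and 0.825 for Foxa3.

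Cebpa (ENSMUSG00000034957, chr7:35119293-35121928, plus strand) was read at 431, 374, 381, 379.9 and 270.5 CPM in NCACS mice 11 to 15. The CACS livers of mice 16 to 20 gave 257, 311, 310.2, 476.5 and 281 CPM. In CACS livers 4 of the 5 values were under the NCACS median of 379.9 CPM, and mouse 19 was the highest of all 10. The means were 367 ± 58.6 and 327 ± 86.4 CPM (SD, n = 5 each). Their log2 fold change of -0.17 (standard error 0.18, 95% interval -0.56 to 0.22, edgeR adjusted p = 0.632) had an exact two-sided permutation p of 0.341 and became -0.34 without CACS mouse 19. CACS mouse 19 was the highest CACS liver for 4 of the 9 genes, namely Hnf4a, Foxa2, Foxa3 and Cebpa, and CACS mouse 17 the lowest for 4, namely Foxa1, Foxa2, Foxa3 and Ppara.

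Ppara (ENSMUSG00000022383, chr15:85734983-85802819, plus strand) was read at 131, 106, 57.8, 104 and 96.5 CPM in NCACS mice 11 to 15. Livers of CACS mice 16 to 20 gave 116, 62.6, 102, 86.0 and 67.0 CPM. All CACS livers lay inside the NCACS range. The groups' log2 difference of -0.19 (standard error 0.22, 95% interval -0.67 to 0.29) did not pass (edgeR adjusted p = 0.660, exact two-sided permutation p = 0.492). The interval excludes a fall to under 0.628 of the NCACS level and a rise past 1.22-fold.

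The xenobiotic receptors had the largest estimates of the 9 genes. Nr1i2 (ENSMUSG00000022809, chr16:38248323-38294824, minus strand) was read at 93.9, 93.0, 79.4, 62.7 and 54.5 CPM in NCACS mice 11 to 15. CACS mice 16 to 20 gave 145, 110.8, 121, 83.5 and 110.8 CPM. In CACS livers 4 of 5 values were above the highest NCACS value, with CACS mouse 19 the exception. The means were 76.7 ± 17.7 and 114 ± 22.3 CPM (SD, n = 5 each), a 1.49-fold difference (95% interval 1.14 to 1.95). The log2 difference of 0.58 (standard error 0.18) had an unadjusted p of 0.00738 and did not pass in edgeR (adjusted p = 0.0916). DESeq2 gave an adjusted p of 0.0402, and called 8.87% of the genes it tested. The exact two-sided permutation p was 0.0238.

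Nr1i3 (ENSMUSG00000005677, chr1:171213970-171220701, plus strand) was read at 77.3, 86.3, 45.1, 62.3 and 42.4 CPM in NCACS mice 11 to 15. CACS mice 16 to 20 gave 133, 67.8, 127, 65.0 and 125 CPM. The CACS livers fell into a high trio (16, 18 and 20), all above the NCACS range, and a low pair (17 and 19) inside it. The means were 62.7 ± 19.3 and 104 ± 34.1 CPM (SD, n = 5 each), a 1.65-fold difference (95% interval 1.11 to 2.45). Its log2 fold change of 0.72 (standard error 0.26) did not pass (edgeR adjusted p = 0.134, unadjusted p = 0.0170), and the exact two-sided permutation p was 0.0635. Tomm40l, which overlaps Nr1i3 on the opposite strand, had 190 to 665 counts per liver and a log2 fold change of 0.38 (edgeR adjusted p = 0.466).

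Nr5a2 (ENSMUSG00000026398, chr1:136842571-136960448, minus strand) was read at 71.5, 53.8, 67.9, 72.5 and 80.2 CPM in NCACS mice 11 to 15. CACS mice 16 to 20 gave 63.0, 67.75, 50.1, 55.0 and 52.6 CPM. No CACS liver reached the NCACS median (0 of 5), but NCACS mouse 12 lay among the CACS values. The means were 69.2 ± 9.71 and 57.7 ± 7.41 CPM (SD, n = 5 each). Its log2 fold change of -0.26 (standard error 0.12, 95% interval -0.52 to 0.0017) did not pass (edgeR adjusted p = 0.234, exact two-sided permutation p = 0.0635).

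Divided by the length of their exons, the 9 genes spanned a wide range of levels in both groups. The length was that of all annotated exons of a gene merged, which can exceed the transcript made in the liver, so the order depends on the annotation. In NCACS livers the order was Cebpa (139 ± 22.2 CPM per kb, SD, n = 5), Hnf4a (131 ± 8.81), Nr1i2 (30.0 ± 6.95), Foxa3 (27.8 ± 8.01), Ppara (25.8 ± 6.92), Nr1i3 (14.2 ± 4.37), Nr5a2 (11.7 ± 1.65), Foxa2 (11.1 ± 1.84) and Foxa1 (4.46 ± 0.721). Cebpa and Hnf4a were not separated, since their ranges overlapped, and neighbours in the order stood apart between Hnf4a and Nr1i2 and between Foxa2 and Foxa1 only. In CACS livers Hnf4a (185 ± 24.0 CPM per kb) came before Cebpa (124 ± 32.8), still with overlapping ranges. Nr1i2 (44.8 ± 8.74) came next, apart from Cebpa, followed by Foxa3 (29.5 ± 10.9), Nr1i3 (23.5 ± 7.73), Ppara (22.6 ± 5.92), Foxa2 (12.7 ± 6.54) and Nr5a2 (9.78 ± 1.26). The ranges of these neighbours overlapped. Foxa1 was again the lowest (4.66 ± 1.29), apart from Nr5a2.

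Which regulators rose and fell together from liver to liver was described by Pearson's r of log2 CPM over the 10 livers after each group's mean had been subtracted. All 36 pairs were computed from the same libraries and scaling factors, and the median r was 0.019, with 7 pairs above 0.5 and 2 below -0.5. How often pairs of other genes reach such values in these livers was not computed, so the values are descriptive. The likest pair was Foxa1 with Foxa2, with r = 0.741 and Spearman's rho = 0.697. Leaving out the 2 livers farthest from the median of Foxa1 (CACS mice 17 and 18) gave r = 0.609. The xenobiotic receptors Nr1i2 and Nr1i3 followed with r = 0.738 and rho = 0.83, and with r = 0.51 without the 2 livers farthest from the median of Nr1i2. Foxa3 went with Cebpa at r = 0.639 (rho = 0.43, and r = 0.578 with the 2 livers left out), Foxa1 with Ppara at r = 0.62 (rho = 0.479, and r = 0.495) and Hnf4a with Foxa3 at r = 0.597 (rho = 0.564, and r = 0.419). The remaining pairs above 0.5 were Foxa2 with Foxa3 at r = 0.596 (rho = 0.418, and r = 0.237) and Ppara with Nr1i3 at r = 0.584 (rho = 0.697, and r = 0.337). Nr5a2 ran against Foxa3 at r = -0.57 (rho = -0.673, and r = -0.623) and against Nr1i3 at r = -0.529 (rho = -0.467, and r = -0.555). Hnf4a and Cebpa, the highest of the 9 genes, were near 0 with each other (r = 0.0592).

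**Figure D4:**
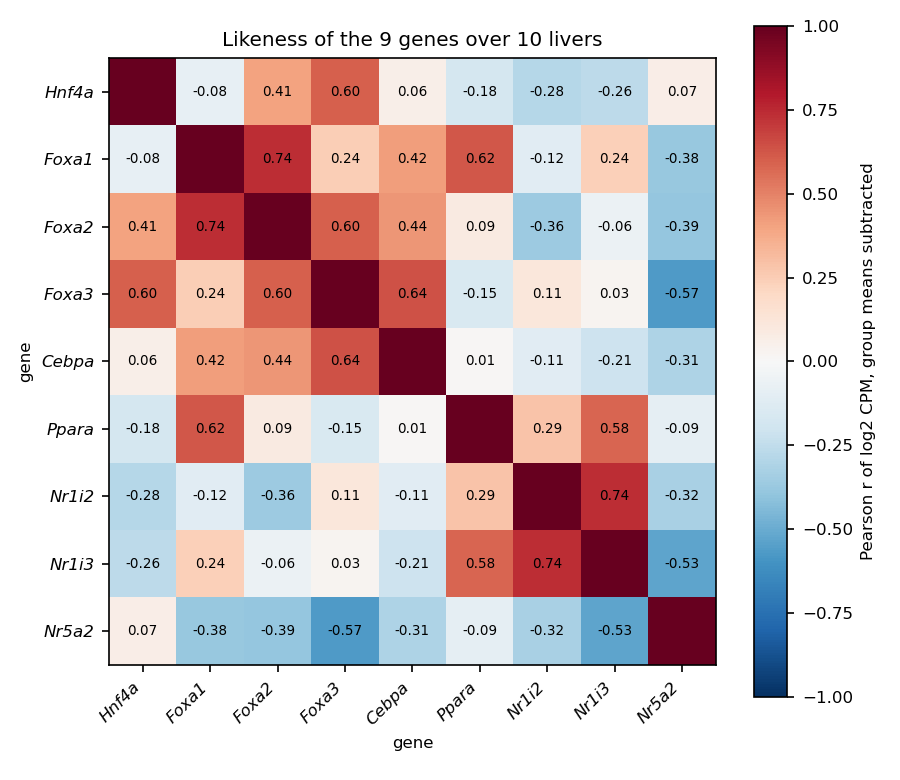
Pearson's r of log2 CPM over 10 livers for each pair of the 9 genes after subtraction of the group means (colour and printed value, from -1 to 1). The largest values are 0.74 for Foxa1 with Foxa2 and for Nr1i2 with Nr1i3, and the lowest is -0.57 for Foxa3 with Nr5a2.

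Among 9235 genes whose mean level was 5 CPM or more, the gene whose log2 CPM followed each regulator most closely over the 10 livers was found as well. The closest were Rrp1 for Hnf4a (r = 0.978, and 0.906 with group means subtracted) and Masp2 for Foxa1 (r = 0.904). They were Fxyd1 for Foxa2 (r = 0.933), Pik3r2 for Foxa3 (r = 0.98) and Ttr for Cebpa (r = 0.923, and 0.937 with group means subtracted). For the nuclear receptors they were Ttll5 for Ppara (r = 0.934), Aifm2 for Nr1i2 (r = 0.977), Maco1 for Nr1i3 (r = 0.955) and Rwdd2b for Nr5a2 (r = 0.973). A best match among so many genes over 10 livers is high by construction, so these values describe the livers only. Rrp1 itself did not pass (log2 fold change 0.29, edgeR adjusted p = 0.0539), whereas Ttpal, the second closest to Hnf4a (r = 0.963), did (log2 fold change 0.80, edgeR adjusted p = 0.0182).

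The remaining nuclear receptors were listed as partners and relatives of the 5 receptors among the 9 genes. Of these 44 genes, 33 had enough counts to be tested and 0 passed in edgeR, while 9 had an unadjusted p under 0.05 (5 higher and 4 lower, beside 21.6% of all genes) and DESeq2 called 3 (beside 8.87% of all genes). Both shares are near the background. Their median log2 fold change was -0.0572, beside -0.00525 over all genes tested. Rxra, the shared partner of PPARα, PXR and CAR, was between 366 and 517 CPM in NCACS and between 431 and 560.1 CPM in CACS livers, with a log2 fold change of 0.047 (edgeR adjusted p = 0.872). Nr1h4, which encodes the bile acid receptor FXR, had means of 141 ± 15.25 and 182 ± 25.8 CPM (SD, n = 5 each) and did not pass (log2 fold change 0.37, edgeR adjusted p = 0.105). Without CACS mouse 17, 1 receptor passed. The 11 receptors left out by the filter had at most 41 counts in a liver.

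Among 47 other liver transcription factors, 46 were tested and 4 passed, all higher in CACS livers (beside 1.89% of all genes), and the median log2 fold change was -0.00646. With any 1 mouse left out, 1 to 3 passed (2 without NCACS mouse 15). Arnt, the partner of the aryl hydrocarbon receptor, was 39.9, 41.6, 36.7, 37.1 and 39.8 CPM in NCACS mice 11 to 15 and 58.3, 49.8, 66.4, 55.2 and 52.1 CPM in CACS mice 16 to 20. Its log2 fold change was 0.53 (standard error 0.091, edgeR adjusted p = 0.0165), without overlap. Cebpg, a C/EBP family member without an activation domain of its own, rose from 52.2 ± 2.66 to 73.1 ± 9.73 CPM (SD, n = 5 each, log2 fold change 0.49, edgeR adjusted p = 0.0273), and Foxo1, the forkhead factor restrained by insulin, from 36.4 ± 6.18 to 54.0 ± 5.97 CPM (log2 fold change 0.57, edgeR adjusted p = 0.0375). Neither gene's groups overlapped. Cux2, a homeobox repressor normally higher in female than in male mouse liver, was between 0.291 and 0.653 CPM in NCACS livers. It was at 30.6, 17.3 and 53.4 CPM in CACS mice 16, 18 and 20 and at 0.551 and 0.817 CPM in CACS mice 17 and 19 (log2 fold change 5.44, edgeR adjusted p = 0.0298). The CACS mice with high Cux2 were those with high Nr1i3, and those with low Cux2 lay within or near the NCACS range for both genes.

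Of 26 coregulators, 25 were tested and 0 passed in edgeR, beside 3.8% of all genes. An unadjusted p under 0.05 was found for 5, all higher in CACS livers, beside 21.6% of all genes in either direction. Of all 14143 genes, 1596 were higher with such a p. DESeq2 called 3, beside 8.87% of all genes. The median log2 fold change of the list was 0.0949. The corepressor gene Ncor1 was the same to within its spread (102.6 ± 13.6 and 101.9 ± 10.6 CPM, SD, n = 5 each, log2 fold change -0.0092, edgeR adjusted p = 0.972). Bhlhe40, a repressor of clock and metabolic genes, had a log2 fold change of 0.94 that did not pass (edgeR adjusted p = 0.0928).

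**Figure D5:**
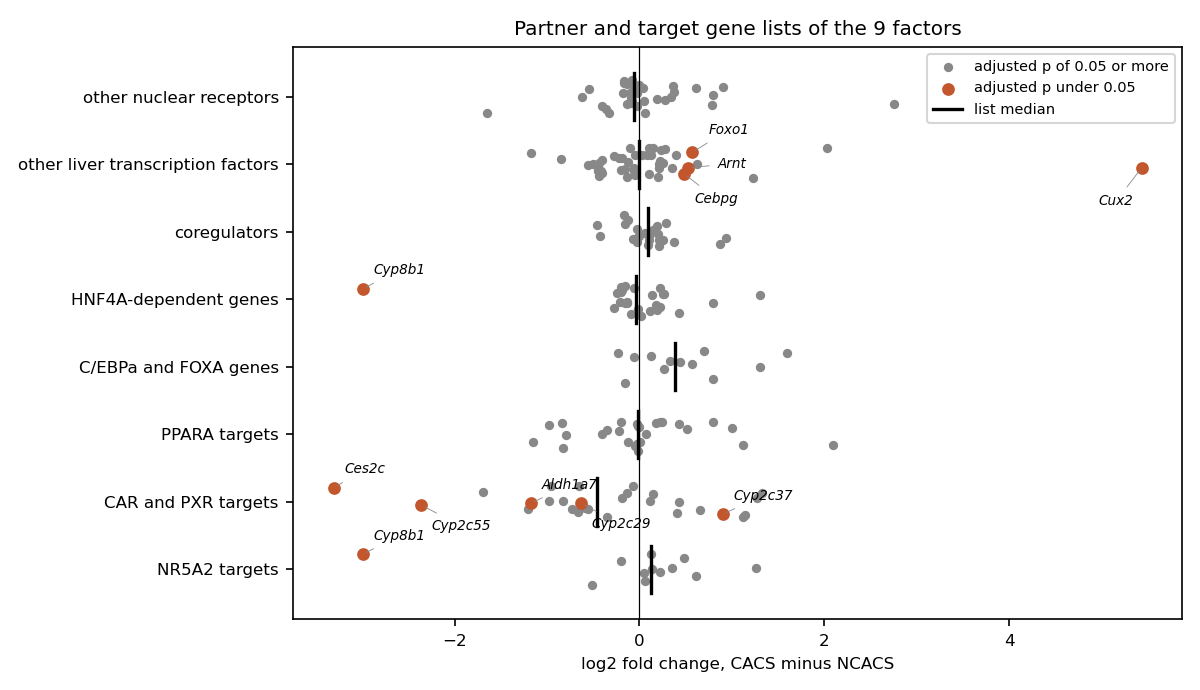
Log2 fold change (CACS minus NCACS, horizontal axis) of every tested gene in each list of partners and targets (vertical axis, points spread within a row for legibility), with genes past an adjusted p of 0.05 in orange and the list median as a bar. The medians lie between -0.45 (CAR and PXR targets) and 0.38 (C/EBPα and FOXA genes).

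The genes that these regulators are known to act on were then read list by list. Of 26 genes that depend on HNF4A, all were tested, 12 were higher and 14 lower, and the median log2 fold change was -0.0348. An unadjusted p under 0.05 was found for 3 (2 higher and 1 lower), beside 21.6% of all genes. In edgeR 1 passed, beside 3.8% of all genes. That gene was Cyp8b1, the sterol 12α-hydroxylase that sets the share of cholic acid among bile acids, and it fell. It was 179.9, 149, 229, 189 and 621 CPM in NCACS mice 11 to 15 and 14.4, 86.0, 29.5, 10.8 and 31.15 CPM in CACS mice 16 to 20 (log2 fold change -2.99, standard error 0.60, edgeR adjusted p = 0.0252). Without CACS mouse 16 or CACS mouse 20 it did not pass, and 0 genes of the list did. The groups did not overlap, so Cyp8b1 was lower in the group in which Hnf4a was higher. Within the groups the livers differed. Among NCACS livers, mouse 15, which stood apart in Dbp, had the highest Hnf4a (688 CPM) and the highest Cyp8b1 (621 CPM). Among CACS livers, mouse 19 had the highest Hnf4a (1007 CPM) and the lowest Cyp8b1 (10.8 CPM). A link between the levels of these genes was not tested. Abundant genes of the list moved little: Apoa2 had a log2 fold change of -0.16 (edgeR adjusted p = 0.580) and Ttr of -0.057 (edgeR adjusted p = 0.887).

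Cyp8b1 was also the single gene past the threshold among 12 LRH-1 targets, beside 3.8% of all genes. Of these targets 9 were higher, and the median log2 fold change was 0.13. An unadjusted p under 0.05 was found for 4 (2 higher and 2 lower), beside 21.6% of all genes. There, 2 genes passed without NCACS mouse 11 or CACS mouse 17, and 0 without CACS mouse 16 or 20. Abcb11, the bile salt export pump, had means of 435 ± 67.5 and 304 ± 74.7 CPM (SD, n = 5 each) and did not pass (log2 fold change -0.52, edgeR adjusted p = 0.114), nor did Apoa1 (log2 fold change 0.35, edgeR adjusted p = 0.303). Of 12 genes of C/EBPα and the FOXA factors, 9 were higher and 0 passed in edgeR or DESeq2. An unadjusted p under 0.05 was found for 4, all higher, beside 21.6% of all genes in either direction (1596 of 14143 higher). The median log2 fold change of these 12 genes was 0.38. Alb, the gene of serum albumin and the most abundant of them, had a log2 fold change of 0.44 (edgeR adjusted p = 0.290). Of 27 PPARα targets, 12 were higher, 15 were lower and 0 passed in edgeR. Among them 5 had an unadjusted p under 0.05 (2 higher and 3 lower), beside 21.6% of all genes. DESeq2 called 2, beside 8.87% of all genes. The median log2 fold change of this list was -0.0157. Fabp1, the liver fatty acid binding protein, had a log2 fold change of -0.79 (edgeR adjusted p = 0.229).

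Among the lists of partners and targets, the CAR and PXR targets had the most calls and the lowest median. Of 32 listed, 28 were tested, 10 were higher and 18 lower, and the median log2 fold change was -0.45. In edgeR's test 4 fell and 1 rose, beside 1.92 and 1.89% of all genes, and 3 to 5 genes passed with 1 mouse left out (3 without NCACS mouse 15). Ces2c, a carboxylesterase, fell from 11.9 ± 4.46 to 1.19 ± 0.599 CPM (SD, n = 5 each, log2 fold change -3.31, edgeR adjusted p = 0.0032). The cytochrome P450 gene Cyp2c55 fell from 20.9 ± 8.60 to 4.06 ± 2.55 CPM (log2 fold change -2.36, edgeR adjusted p = 0.0194) and the aldehyde dehydrogenase gene Aldh1a7 from 249 ± 34.8 to 110.4 ± 36.5 CPM (log2 fold change -1.17, edgeR adjusted p = 0.0223). Within the Cyp2c family, Cyp2c29 fell from 2828 ± 434.5 to 1828 ± 259 CPM (log2 fold change -0.63, edgeR adjusted p = 0.0425) and Cyp2c37 rose from 206 ± 52.6 to 384 ± 104 CPM (log2 fold change 0.90, edgeR adjusted p = 0.0374). None of these 5 genes had overlapping groups. The Cyp2c, Ces2 and Aldh1a genes belong to families of close copies, among which reads may have been split, so their single values are uncertain. Cyp3a11, the best known PXR target of mouse liver, was between 1322 and 8922 CPM in NCACS and between 1889 and 5283 CPM in CACS livers (log2 fold change -0.66, edgeR adjusted p = 0.413). The estimates of both receptors were above 0 but did not pass in edgeR, while the median of their targets was below 0. These targets went both ways: 13 had an unadjusted p under 0.05 (5 higher and 8 lower), beside 21.6% of all genes. A link between the receptors and these targets was not tested.

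Markers of the other cells of the liver moved as follows beside these results. Over all genes, 3.8% passed in edgeR, 8.87% were called by DESeq2 and 21.6% had an unadjusted p under 0.05 in edgeR. These shares cover both directions, and of the 14143 genes 1455 were lower and 1596 higher with an unadjusted p under 0.05. All 7 tested markers of Kupffer cells and macrophages were lower in CACS livers, and 1 passed, Cd5l (log2 fold change -0.90, edgeR adjusted p = 0.0374), while 4 had an unadjusted p under 0.05 and DESeq2 called 3. Their median log2 fold change was -0.80. The summed level of the list was between 170.2 and 285 CPM in NCACS and between 101 and 204 CPM in CACS livers. Of the 10 hepatocyte markers, 7 were higher and 0 passed in edgeR or DESeq2 (1 with an unadjusted p under 0.05), and their median log2 fold change was 0.22. The summed levels of cholangiocyte markers (55.4 to 73.2 CPM in NCACS and 38.6 to 71.2 CPM in CACS livers), of endothelial markers (141 to 202.5 and 174 to 227 CPM), of stellate cell markers (149.5 to 257 and 161 to 249 CPM), of lymphocyte markers (8.63 to 19.7 and 6.11 to 12.7 CPM) and of neutrophil markers (4.21 to 20.02 and 2.23 to 5.996 CPM) overlapped between groups. Within the immune lists, 3 of 3 tested neutrophil markers were lower with an unadjusted p under 0.05 (median log2 fold change -1.66). None passed in edgeR (0 genes) and DESeq2 called 2. Of 5 tested lymphocyte markers, 3 were lower with an unadjusted p under 0.05 (median log2 fold change -0.68), 0 passed in edgeR and DESeq2 called 1. Markers of lung epithelium summed to between 2.02 and 6.89 CPM in NCACS and between 2.76 and 9.62 CPM in CACS livers. One of them, Sftpa1, rose (log2 fold change 1.27, edgeR adjusted p = 0.0323) at a level of at most 5.65 CPM. In each of these lists, 0 markers were at 0 in all livers. Their part in the level of Hnf4a, Nr1i2 or Nr1i3 was not tested.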

How the data were processed

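Liver RNA of 10 KL mice (5 NCACS, 5 CACS) was measured by bulk RNA-seq from stranded poly(A) libraries read as single ends of 100 bases. The authors deposited raw read counts per Ensembl gene without normalization. The submitters' processing notes name STAR 2.4.1d, HTSeq 0.6.1, DESeq2 and GRCm38. The annotation release and the strand setting of the counting are not given in the sources used here. The batch correction of the study also covered libraries that are not analysed here, and it was not applied.

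Groups, mouse numbers and weight changes came from the sample labels, which give no batch. GENCODE M21, made on GRCm38, gave symbols and coordinates. Counts were filtered with filterByExpr (minimum count 10), normalized by TMM and tested over all genes with the quasi-likelihood test of edgeR 4.0.16 and Benjamini-Hochberg adjustment (threshold 0.05). A prior count of 2 went into log2 CPM. Single genes were also tested by an exact two-sided permutation over all assignments of the livers to groups of 5. DESeq2 1.42.0, limma 3.58.1 (voom), other scaling factors, filters and thresholds, and leaving out each mouse were alternatives. R 4.3.3 and Python 3.11.15 were used. The edgeR fit was tested on simulated data in which 200 genes differed 4-fold: 178 were recovered, and 8 of 186 calls were false. Smaller differences, such as those of the 9 genes, were not simulated. No 2 livers of a group were copies of 1 library: chi-square per degree of freedom within a group was at least 50.4. With at least 31459179 counts per liver, counting error is small beside the spread between mice for all 9 genes, of which the lowest count was 369.

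The 9 genes and the gene lists were chosen with earlier results of these data known, and the ratios of Hnf4a to other genes, the antisense ratio and the promoter motifs with the data in view. Named genes are the 9, those of each list past the threshold (up to 5) or highest in mean CPM (up to 2), and those closest to each of the 9 over the livers. Promoter sequences are those of RefSeq on GRCm38.p6. Some items are not reported here. Of the listed genes, Prmt1 had no value under that symbol.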

Additional observations from a re-analysis of the deposited data

Results flagged for a closer look

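For 50 genes named here, each group of 5 livers was searched for a liver far from the others, judged by its gap to the nearest liver as a share of the group's range (Dixon's 95% critical value 0.71). Of 100 gene and group combinations, 6 exceeded it, and chance alone gives about 1 in 20. For Cebpa the liver of CACS mouse 19 stood apart, at 476 CPM with the next liver at 311 CPM (share 0.754). For Foxo1 it was NCACS mouse 13, at 25.6 CPM below the next at 36.9 CPM (0.752). For Cyp2c37 it was CACS mouse 20, at 568 CPM above the next at 356 CPM (0.842). Cyp8b1 had such a liver in both groups: NCACS mouse 15 at 621 CPM with the next at 229 CPM (0.829), and CACS mouse 17 at 86.0 CPM with the next at 31.2 CPM (0.729). For Sftpc it was NCACS mouse 11, at 0.089 CPM below the next at 1.07 CPM (0.773).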

How the results depend on the processing

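No paired analysis was possible because no mouse number occurs in both groups. The log2 fold change of Hnf4a was 0.493 without a filter on low counts (adjusted p = 0.0763 in edgeR), where more genes were tested, and from 0.45 to 0.562 with 1 mouse left out. Nr1i2 passed in DESeq2 (log2 fold change 0.569, adjusted p = 0.0402). With 1 mouse left out, the log2 fold changes ran from -0.0647 to 0.176 for Foxa1, from -0.0876 to 0.401 for Foxa2 and from -0.13 to 0.192 for Foxa3. Of the 9 genes, those not yet named kept their direction and side of the threshold under every alternative run: Cebpa (-0.34 to -0.0896 with 1 mouse left out), Ppara (-0.334 to -0.0681), Nr1i3 (0.617 to 0.868) and Nr5a2 (-0.34 to -0.199). The 538 calls over all genes became 1376 in DESeq2, 34 at an adjusted p under 0.01, 179 with a change of at least 1 on the log2 scale in either direction, and 178 to 519 with 1 mouse left out (178 without NCACS mouse 11). DESeq2 called 3 nuclear receptors, 7 liver transcription factors, 3 coregulators, 2 PPARα targets, 8 CAR and PXR targets and 3 LRH-1 targets. Over all genes it called 8.87%. At an adjusted p under 0.01, 0 liver transcription factors, 1 CAR and PXR target, 0 HNF4A-dependent genes and 0 LRH-1 targets were called. With that log2 limit, 1 liver transcription factor and 3 CAR and PXR targets were called. With 1 mouse left out, calls were 0 to 1 for nuclear receptors, 1 to 3 for liver transcription factors, 3 to 5 for CAR and PXR targets, 0 to 1 for HNF4A-dependent genes (0 without CACS mouse 16 or 20) and 0 to 2 for LRH-1 targets. The Hnf4a ratios without overlap, an alternative added after the data were seen, numbered 1 to 2 (2 without NCACS mouse 15). The causes were not tested. No scaling moved the median of all genes by 0.1 or more. The share of higher among called genes stayed within 44.1 to 51.5% over the tests, scalings and filters. With 1 mouse left out it ran from 40.4% (without NCACS mouse 14) to 52.9% (without CACS mouse 19).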
